A study of Rattus norvegicus with 9 samples.

Results

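mRNA of the kidney cortex was sequenced in diabetic rats of the ZDF fa/fa strain, and the transcripts of 8 podocyte genes are described here. The genes were Nphs1, Magi2, Podxl, Synpo, Clic5, Plce1, Ptpro and Wt1, chosen by name with earlier results of these data known. All 8 of 8 were found among the 18420 genes of the table. The ZDF fa/fa rat is an obese strain with a defective leptin receptor that becomes diabetic and develops kidney disease. All 9 libraries carried the one label Medical Bypass, set in the study's title against gastric bypass surgery, and formed a single group of 9 replicates. The labels give no drug, dose, time, age or sex, and they do not say whether the replicates were separate animals. Every p-value therefore reflects only how values vary, alone or together, across these samples, and that variation may be technical. No surgical, untreated or healthy group was analysed here. The comparisons are therefore between replicates, and no effect of treatment or of diabetes can be read from them.

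Podocytes are the epithelial cells that wrap the glomerular capillaries. Their foot processes interlock, and the gap between neighbouring processes is bridged by the slit diaphragm, a cell junction built around nephrin that keeps plasma proteins out of the urine. Podocyte injury and loss are known features of diabetic kidney disease, and inherited defects in several of these 8 genes cause nephrotic syndrome in people. In a whole piece of cortex podocytes are a small minority of the cells, and fewer podocytes cannot be told apart from less RNA per podocyte. Nor can reads of these genes from other cortical cells be told apart from those of podocytes.

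Levels are gene reads over the size factor of the library, called normalised read counts below, and are not corrected for transcript length, so levels are compared between libraries and never between genes. Reads in genes ranged from 10757440 in replicate 3 to 43071223 in replicate 8, and 1 read was worth 0.544 to 1.99 units of normalised read count. Reads falling outside annotated genes made up 22.03% of counted reads in replicate 5 and 27.2% to 31.3% in the other replicates. Reads aligned to more than 1 place made up 14.9% to 22.1%, with the highest share also in replicate 5. Markers of the tissue were present: the proximal tubule transporter Slc34a1 averaged 79242 ± 21463 and the distal nephron protein Umod 57070.3 ± 13125 normalised read counts (SD, n = 9).

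The promoters of 7 of the 8 genes were at hand as 300 bases of RefSeq sequence, 250 before and 50 after the annotated start, in the rat assembly GRCr8. Plce1 was not among them. Those of Nphs1, Podxl, Ptpro and Magi2 are printed because the levels of these 4 genes carry the relations described below. Capitals mark matches, on either strand, to the WT1 core GTGGGNG, the GC box GGGCGG or the E-box CANNTG. The sequences run 5′ to 3′ on the strand of the gene.
Nphs1, chr1:94848011-94848310, plus strand: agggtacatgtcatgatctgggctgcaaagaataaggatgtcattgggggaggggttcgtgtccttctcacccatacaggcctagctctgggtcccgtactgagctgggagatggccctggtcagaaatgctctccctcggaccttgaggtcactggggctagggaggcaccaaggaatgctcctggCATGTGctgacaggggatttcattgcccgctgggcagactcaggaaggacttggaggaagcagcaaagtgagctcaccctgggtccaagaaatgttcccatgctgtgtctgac
Podxl, chr4:61149082-61149381, minus strand: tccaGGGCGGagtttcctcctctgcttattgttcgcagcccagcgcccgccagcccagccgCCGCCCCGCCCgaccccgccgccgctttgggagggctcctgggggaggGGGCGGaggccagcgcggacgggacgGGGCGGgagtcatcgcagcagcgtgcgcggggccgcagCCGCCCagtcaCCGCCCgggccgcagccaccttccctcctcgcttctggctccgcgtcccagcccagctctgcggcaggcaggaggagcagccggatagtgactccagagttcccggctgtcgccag
Ptpro, chr4:171895261-171895560, plus strand: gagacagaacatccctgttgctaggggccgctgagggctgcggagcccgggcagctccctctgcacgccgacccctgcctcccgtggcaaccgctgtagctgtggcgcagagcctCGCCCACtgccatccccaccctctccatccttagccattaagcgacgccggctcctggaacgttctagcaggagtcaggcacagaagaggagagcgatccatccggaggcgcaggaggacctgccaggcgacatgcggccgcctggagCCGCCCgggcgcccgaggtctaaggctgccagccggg
Magi2, chr4:16762086-16762385, minus strand: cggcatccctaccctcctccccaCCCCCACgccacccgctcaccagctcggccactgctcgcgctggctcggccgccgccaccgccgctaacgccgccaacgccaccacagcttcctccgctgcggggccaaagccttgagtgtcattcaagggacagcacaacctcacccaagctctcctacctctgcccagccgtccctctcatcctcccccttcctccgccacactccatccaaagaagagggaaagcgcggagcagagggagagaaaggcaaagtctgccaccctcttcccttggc

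The 4 sequences differ in make-up. The Podxl promoter is 74.7% G and C and holds 7 GC boxes, 2 of them sharing 1 base, whereas the Nphs1 promoter is 56.3% G and C and holds none. Ptpro and Magi2 each hold 1 WT1 core, and Nphs1 holds 1 E-box. Over the 7 promoters the WT1 core was present in 3, against 28.8% of all 33469 promoters of the same length. GC boxes were present in 4 of 7, against 33.1% of all promoters, and E-boxes in 2 of 7, against 72.1%. The forkhead site TGTTTAC, the LMX1B site TAATTA and the TATA box TATAAA matched none of the 7, against 3.78%, 5.36% and 14.2% of all promoters. A match of letters is not a binding site, and its absence from these windows says nothing of the factor.

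Nephrin and its scaffold were the first genes examined, as the core of the slit diaphragm. Nphs1 encodes nephrin, the transmembrane protein whose extracellular domains meet across the slit. Its normalised read count was lowest in replicate 5 at 1712, had a median of 1948, and was highest in replicate 1 at 2697, a 1.58-fold range with a mean of 2052 ± 333.3 (SD, n = 9). Replicates 1 and 3, at 2697 and 2391, stood above the other 7, which lay between 1712 and 2186.

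Magi2 encodes a membrane-associated guanylate kinase that holds nephrin complexes together on the inner side of the membrane. It varied most of the 8 genes. Its normalised read counts were 140.9, 133.6, 173.2, 163.4 and 162.7 in replicates 1, 2, 3, 6 and 9, and 68.5, 48.3, 75.9 and 54.4 in replicates 4, 5, 7 and 8. The 9 libraries fell into 5 high and 4 low ones with an empty gap between 75.9 and 133.6, and the highest was 3.58 times the lowest. These are few reads, 66 to 239 per library, yet the 95% Poisson interval of the highest low library, 59.8 to 95.0 in replicate 7, lay below that of the lowest high library, 114.4 to 155.1 in replicate 2. These intervals cover counting error only.

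The surface and cytoskeleton of the foot process were represented by 3 genes. Podxl encodes podocalyxin, the sialic acid-rich protein that gives the apical surface its negative charge. Its normalised read count was 4256 in replicate 5, 5315 at the median and 6752 in replicate 9, with a mean of 5374 ± 900.7 (SD, n = 9). Replicates 1, 2, 3, 6 and 9 lay between 5315 and 6752 and the other 4 between 4256 and 4757, so the 5 libraries high in Magi2 were also the 5 highest in Podxl. Synpo encodes synaptopodin, an actin-associated protein of foot processes. It ranged from 568.7 in replicate 4 through a median of 877.8 to 1284 in replicate 6, a 2.26-fold range with a mean of 868.8 ± 222.0 (SD, n = 9). Clic5 encodes a chloride intracellular channel family protein that lies with podocalyxin and ezrin at the foot process membrane. It ranged from 1504 in replicate 5 through a median of 1842 to 2269 in replicate 6. Its values formed a high set of 2226, 2269 and 2234 in replicates 1, 6 and 9 and a low set of 6 libraries at or below 1843.

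Signalling genes were Plce1 and Ptpro. Plce1 encodes phospholipase C epsilon, an enzyme whose loss causes nephrotic syndrome in people. Its lowest normalised read counts were 494.2 in replicate 7 and 497.8 in replicate 5, and it had a median of 677.7 and was highest in replicate 9 at 906.0. Ptpro encodes GLEPP1, a receptor tyrosine phosphatase of the podocyte surface. It ran from 1967 in replicate 4 through a median of 2284 to 2962 in replicate 1, with a coefficient of variation of 12.9%, the lowest of the 8 genes.

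Wt1, the transcription factor that maintains the podocyte programme, was lowest in replicate 8 at 472.6, had a median of 514.6 and was highest in replicate 9 at 727.6. Replicates 9 and 1, at 727.6 and 646.8, stood above the other 7, which lay between 472.6 and 561.9. In people an antisense transcript starts at the WT1 promoter. The library kit keeps strand, but whether counting used it is not given in the sources used here, so reads from an antisense partner cannot be told apart.

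**Figure D1:**
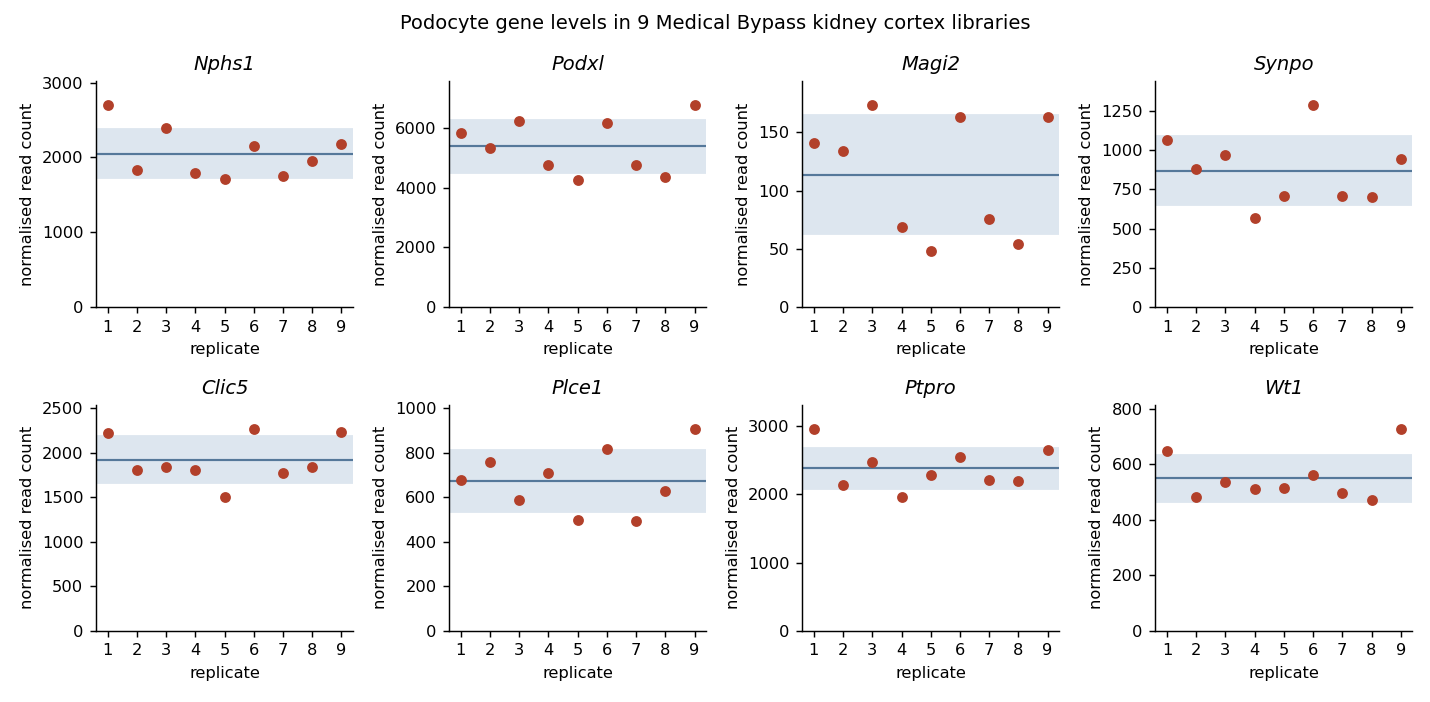
Normalised read count (vertical axis, from 0) of the 8 podocyte genes in each of the 9 Medical Bypass replicates (horizontal axis); the line is the mean and the band the mean ± 1 SD over the 9 replicates. Magi2 splits into 5 libraries at 133.6 to 173.2 and 4 at 48.3 to 75.9, while Ptpro stays between 1967 and 2962.

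The same libraries tended to be high or low for all 8 genes. Each of the 8 genes was above its own mean log2 level in replicates 1, 6 and 9, and each was below it in replicates 5, 7 and 8. Replicate 4 had 1 gene above, Plce1, and 7 below. Replicates 2 and 3 were mixed, with 4 and 5 genes above the mean log2 level. The summed normalised read count of the 8 genes was lowest in replicate 5 at 11524 and highest in replicate 9 at 16564, a 1.44-fold range. This sum, like those of the lists below, weighs genes by their read counts. Podxl, averaging 5374, weighs most in it and was itself lowest in replicate 5 and highest in replicate 9, while Magi2 averaged 113.4.

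Whether any of the genes varied more than genes of like level was asked with limma, which set each gene's variance on the log2 scale against a robust trend over the 13647 genes that averaged 10 or more normalised read counts. No gene passed at an adjusted p of 0.05 (0% of genes tested), and 573 had an unadjusted p below it. The variance of Magi2 was 3.76 times its trend (unadjusted p = 0.0933, adjusted p = 0.957 by limma) and that of Synpo 1.98 times. The other 6 genes lay between 0.527 times for Ptpro and 1.27 times for Plce1. The median ratio was 0.835 over the 8 genes and 1.11 over all genes tested.

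**Figure D2:**
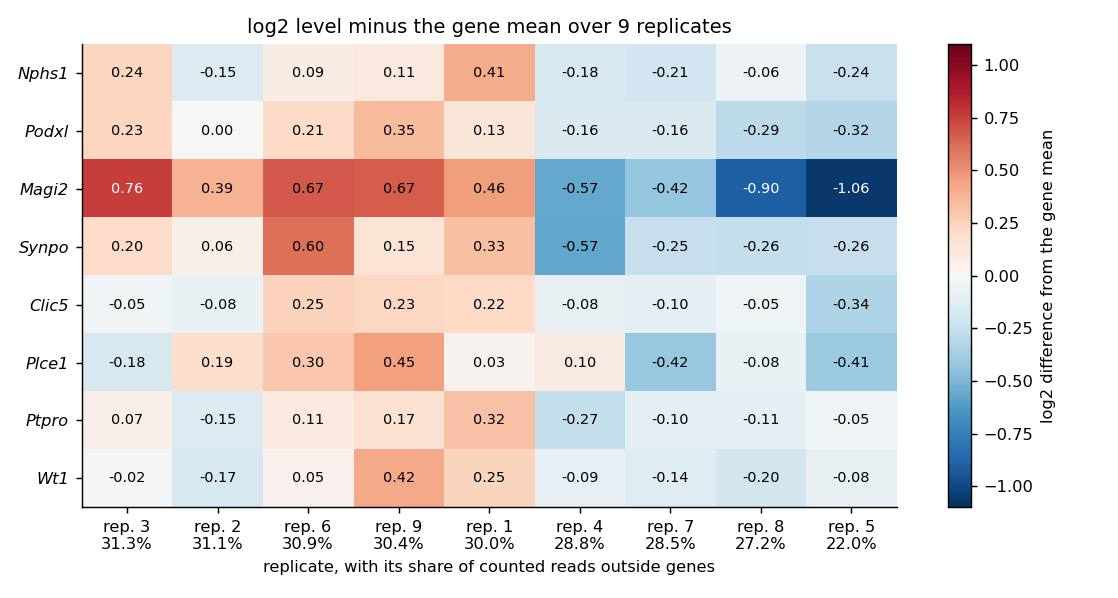
Log2 level minus the gene's mean over the 9 replicates for the 8 podocyte genes; columns are replicates in falling order of the share of counted reads outside genes, printed under each. Magi2 goes from 0.76 at the left to -1.06 at the right, while Ptpro lies between -0.27 and 0.32.

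To ask which genes followed nephrin, every gene was regressed on log2 Nphs1 across the 9 replicates with limma. The slope is the change in log2 level per SD of log2 Nphs1. No gene passed at an adjusted p of 0.05 (0% of 13646 genes), while 856 genes, 6.27%, had an unadjusted p below it, with 449 of these, 3.29% of genes tested, having a positive slope. edgeR's quasi-likelihood test on the recovered reads also called 0 genes, and DESeq2 called 11, none of them among the 8 podocyte genes.

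All 7 other podocyte genes had a positive slope on Nphs1, against 48.4% of all genes tested. Of the 7, 4 had an unadjusted p under 0.05, against 6.27% of all genes tested. Without replicate 1, Magi2, Podxl and Synpo had one under 0.05 (unadjusted p = 0.00437, 0.0115 and 0.0201 by limma) and the others did not. In that run 4159 of 13634 genes tested also had one. Magi2 had a slope of 0.52 ± 0.17 (SE, unadjusted p = 0.0108, adjusted p = 0.764 by limma). Synpo had 0.26 ± 0.09, Podxl 0.18 ± 0.07 and Ptpro 0.16 ± 0.06, with adjusted p-values of 0.764 to 0.770 by limma. Clic5, Wt1 and Plce1 had slopes of 0.14, 0.14 and 0.11. The slopes of Magi2 and Clic5 include the distance between their high and low libraries. The median slope of the 7 genes was 0.16, and that of all genes tested was -0.01. With log2 reads in genes as a covariate none of the 7 had an unadjusted p under 0.05 by limma, the lowest being 0.0570 for Synpo. With the share of reads outside genes as a covariate Ptpro alone did (slope 0.19, unadjusted p = 0.0143, adjusted p = 0.790 by limma), Magi2 had a slope of 0.25 (unadjusted p = 0.1098) and Plce1 one of 0.00279. All 7 slopes stayed positive under both covariates.

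Following Podxl in place of Nphs1 gave a different count. There 3436 genes passed, 1897 with a positive slope, 13.9% of those tested, and 1539 with a negative one, 11.3%. Among the other 7 podocyte genes 2 were called, both positive: Magi2 with a slope of 0.70 ± 0.09 (adjusted p = 0.00457 by limma) and Synpo with 0.29 ± 0.08 (adjusted p = 0.0246 by limma). Podxl, Magi2 and Synpo were each higher without overlap in replicates 1, 2, 3, 6 and 9 than in the other libraries. Both slopes include the distance between these sets of libraries. Nphs1 had a slope of 0.16 ± 0.07 on Podxl (adjusted p = 0.0786 by limma). Following Synpo or Wt1 called 0 genes by limma, with 1664 and 504 genes at an unadjusted p under 0.05.

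Pairs of podocyte genes were then compared across the 9 replicates with two-sided exact permutation tests of log2 levels, adjusted over all 28 pairs. Since Magi2 and Clic5 fell into separate high and low libraries, a correlation over all 9 libraries would include the distance between those sets. No pooled r is given for them, which leaves 15 pairs of the other 6 genes. All 15 correlations were positive, with a median r of 0.687, against 49.8% positive and a median of -0.004 over all pairs of tested genes. The genes were chosen with earlier results of these data known, so this contrast is a description only. Of the 15, 10 had an r of at least 0.6, against 16.2% of all gene pairs, and 2 had at least 0.8, against 6% of them. None of the 15 passed at an adjusted p of 0.05 with Pearson's r, 8 had an unadjusted p under it, and 1 passed with Spearman's rho. Of the 13 pairs with Magi2 or Clic5, 1 passed with Pearson's r, that of Podxl and Magi2, whose split into the same 5 high and 4 low libraries is described above. With Spearman's rho the pairs of Podxl with Magi2, Nphs1 with Clic5 and Synpo with Magi2 passed (exact permutation, adjusted p = 0.0210, 0.0425 and 0.0425). These rank correlations also include the order of the high and low sets.

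Among these 15 pairs, Nphs1 and Ptpro had the highest Pearson's r, at 0.867 (exact permutation p = 0.00437, adjusted p = 0.0508) and rho = 0.683 (exact permutation p = 0.0503, adjusted p = 0.0881). Without replicates 1 and 3, the farthest in Nphs1, r was 0.780. Wt1 and Ptpro had r = 0.805 (exact permutation p = 0.0125, adjusted p = 0.0508) and rho = 0.867 (exact permutation p = 0.00451, adjusted p = 0.0425), the highest rho of the 15, and r was 0.694 without replicates 1 and 9. Synpo reached r = 0.790 with Ptpro and 0.789 with Podxl (exact permutation p = 0.0121 and 0.0138, adjusted p = 0.0508 for both). Plce1 had r of 0.278 with Ptpro, 0.357 with Nphs1, 0.468 with Synpo, 0.558 with Wt1 and 0.664 with Podxl, none of which passed. Scaling to an equal total of gene reads, in place of the size factors, made 12 of the 15 pairs pass. How many of all gene pairs would pass under that scaling was not computed. Under it 9310 of 13650 genes had a positive slope on Nphs1, against 6598 of 13646 with the size factors. The equal-total scaling moved the median level of all genes by 0.16 in replicate 1 and by -0.14 in replicate 5 on the log2 scale.

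Library measures that moved with these genes were sought next, among reads in genes, the share of reads outside genes and the share aligned to more than 1 place. Of the 18 relations of the 6 genes without separate sets, adjusted over all 24, 1 passed. Of the 6 relations of Magi2 and Clic5, for which no pooled r is given, 1 passed, that of Magi2 with the share of reads outside genes. Podxl was higher in libraries with more reads outside genes, with r = 0.780 (exact permutation p = 0.00181, adjusted p = 0.0218) and r = 0.748 without replicates 5 and 8. Its rho was 0.833 (exact permutation p = 0.00827, adjusted p = 0.0992). Nphs1, Synpo and Plce1 had r of 0.559, 0.566 and 0.627 with that share, and Wt1 and Ptpro 0.316 and 0.300, none of which passed. The call for Podxl was lost without replicate 4, 5, 7 or 8, with r between 0.781 and 0.843. Podxl also had r = -0.730 with log2 reads in genes (exact permutation p = 0.0257, adjusted p = 0.154).

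The share of reads outside genes was therefore fitted to every gene with limma, a fit added after the data were seen. It called 3975 of 13647 genes, 2145 with a positive slope, 15.7% of those tested, and 1830 with a negative slope, 13.4%. With the same total of gene reads per library the split was 3165 positive and 824 negative. Without replicate 5, the library with the lowest share, 1965 genes were called.

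Magi2 had a slope of 0.63 ± 0.13 log2 units per SD of the share (adjusted p = 0.00737 by limma), and it passed under every alternative that was run for this fit. Its 5 high libraries are the 5 with the highest share, so this slope includes the distance between its high and low libraries. Podxl had a slope of 0.19 ± 0.07 (adjusted p = 0.0462 by limma), lost without any one of replicates 2 to 9 (adjusted p = 0.0565 to 0.0879) and with no filter on low genes. The other 6 podocyte genes had positive slopes that did not pass, from 0.05 for Ptpro to 0.21 for Synpo, with adjusted p-values of 0.0964 to 0.568 by limma. With the same total per library, Clic5 and Plce1 passed as well.

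Replicates 1, 2, 3, 6 and 9 had at least 30% of counted reads outside genes and replicates 4, 5, 7 and 8 had less. Without overlap between these libraries, 3 of the 8 genes were higher in the first set: Magi2, Podxl and Synpo, the last at 877.8 to 1284 against 568.7 to 708.8. Over all genes tested 6.35% were higher without overlap and 4.29% lower. This division is by a library measure, chosen after the values were seen, and is not a grouping of the study. The part of the library measure in the levels of the podocyte genes was not tested.

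With the share of reads outside genes as a covariate, the relations among the genes changed in part. Among the 15 pairs, 2 passed: Nphs1 with Ptpro at r = 0.884 and Podxl with Wt1 at r = 0.848 (permutation of residuals, which is approximate, adjusted p = 0.0379 for both). Nphs1 with Plce1 had r = 0.00985. How many of all gene pairs would pass with this covariate was not computed.

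**Figure D3:**
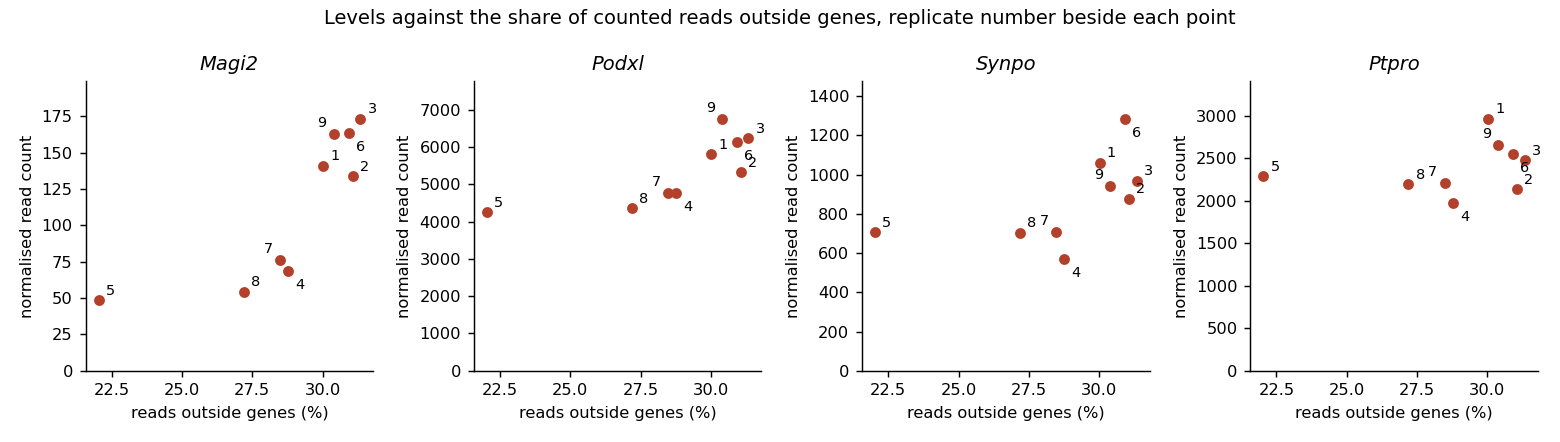
Normalised read count (vertical axes, from 0) against the percentage of counted reads outside genes (horizontal axes) for Magi2, Podxl, Synpo and Ptpro, with the replicate number beside each point. Magi2, Podxl and Synpo are higher in each of the 5 libraries at 30% or more than in the 4 below, and Ptpro overlaps.

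Other podocyte genes were examined in a list of 82 drawn up by role, of which 71 were matched and 67 passed the minimum mean. The list was not limited to genes expressed only in podocytes. Its reads come from whole cortex and cannot be assigned to a cell type. On Nphs1, 51 of 67 had a positive slope, against 48.4% of all genes tested, with a median of 0.07. None passed by limma and 5 had an unadjusted p under 0.05. Without replicate 1, 39 of 67 slopes were positive. Singled out after their values were seen, the axon guidance receptor Robo2 had a slope of 0.30 and the transcription factor Lmx1b 0.32 (unadjusted p = 0.00608 and 0.0110, adjusted p = 0.750 and 0.764 by limma).

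On the share of reads outside genes, 17 of these 67 genes passed with a positive slope and 7 with a negative one, against 15.7% and 13.4% of all genes tested. With the same total per library the counts were 21 and 3, without replicate 5 they were 10 and 2, and without replicate 1 they were 18 and 16. Over all genes tested these settings gave 3165 and 824 of 13651, 1250 and 715 of 13634, and 2820 and 2579 of 13635. The main counts by role below are to be read against 15.7% and 13.4% of all genes. Counts under another setting are to be read against the counts over all genes there. Differences between roles were not tested. Of 12 slit diaphragm genes, 5 passed with a positive slope, 3 when replicate 5 was left out, and none with a negative one. Among these 5, Iqgap1, a scaffold of actin and junctions, had a slope of 0.31 ± 0.07 and the giant cadherin Fat1 0.29 ± 0.08 (adjusted p = 0.0123 and 0.0181 by limma). Cd2ap, the adaptor that links nephrin to actin, had 0.68 ± 0.13 and Kirrel1, the nephrin-like protein NEPH1, 0.46 ± 0.12 (adjusted p = 0.00571 and 0.0181 by limma). These last 2 were singled out after their values were seen.

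Of 14 genes of the actin cytoskeleton and foot process, 1 passed with a positive slope and 4 with a negative one. The positive and negative counts were 3 and 2 with the same total per library, and the negative count ran from 1 without replicate 5 to 6 without replicate 1. Ezr and Actn4, named for the highest mean counts, averaged 20591 ± 3660.0 and 17656 ± 2027 normalised read counts (SD, n = 9). Their slopes of -0.01 and -0.09 did not pass. Arhgdia, an inhibitor of small GTPases, and Slc9a3r1, the ezrin partner NHERF1, had slopes of -0.33 and -0.23 (adjusted p = 0.00755 and 0.0260 by limma) and were singled out after their values were seen. Of 10 genes of the basement membrane and its adhesion, 4 passed with a positive slope, 2 when replicate 5 was left out, and none with a negative one. Itgb1 and Lamb2, named for the highest mean counts, had slopes of 0.19 and -0.17 that did not pass.

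Of 8 transcription factor genes, 1 passed, with a positive slope, a share near that of all genes. Tcf21 and Pax2 averaged 517.7 ± 102.9 and 331.6 ± 41.2 normalised read counts (SD, n = 9) and had slopes of -0.17 and 0.10 that did not pass. Whether the Pax2 reads came from podocytes was not tested. Of 15 receptors, channels and enzymes, 6 passed with a positive slope and 3 with a negative one, and 1 to 4 were negative with 1 replicate left out. Ptprd, a receptor tyrosine phosphatase, had a slope of 0.61 ± 0.19 (adjusted p = 0.0341 by limma), and Efnb1 one of -0.16 that did not pass. The 3 negative genes were Coq2, Coq6 and Coq8b, which serve coenzyme Q synthesis and were singled out after their values were seen. None of 8 secreted and other markers passed by limma, and 2 had an unadjusted p under 0.05. Vegfa and Tmsb4x, named for the highest mean counts, had slopes of 0.13 and -0.23.

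**Figure D4:**
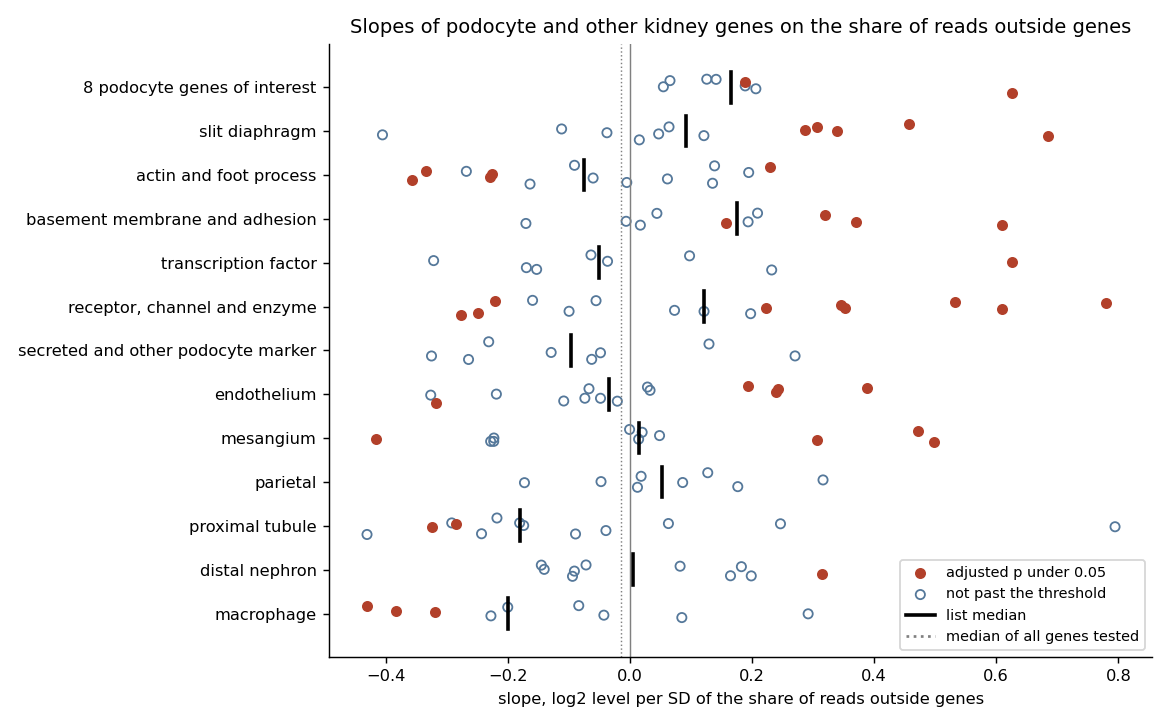
Slope of each gene on the share of reads outside genes, in log2 units per SD of the share (horizontal axis), for the 8 podocyte genes, other podocyte genes by role, and genes of other kidney cell types (rows); filled points have an adjusted p under 0.05 by limma. The bar is the median of each list and the dotted line the median of all genes tested; the 8 podocyte genes all lie above 0, with Magi2 at 0.63.

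Genes of the other cell types of the cortex were counted in the same fits, as a measure of what else moved between the libraries. Matched were 14 of 16 endothelial, 11 of 13 mesangial, 8 of 8 parietal, 13 of 14 proximal tubule, 10 of 15 distal nephron and 10 of 11 macrophage genes. No matched gene was at 0 in all libraries, and nothing can be said of the unmatched ones, among them Pecam1, Lrp2, Slc12a3 and Aqp2. In the glomerulus, the endothelial list had 11 of 14 positive slopes on Nphs1, the mesangial list 8 of 11 and the parietal list 5 of 8. Without replicate 1 the endothelial and mesangial counts were 6 of 14 and 5 of 11. Eng and Kdr, named for the highest mean counts, averaged 3486 ± 778.8 and 3252 ± 571.8 normalised read counts (SD, n = 9). On the share of reads outside genes, Kdr was 1 of 4 endothelial genes with a positive call (slope 0.19, adjusted p = 0.0461 by limma), and 1 endothelial gene had a negative call, against 15.7% and 13.4% of all genes tested. With 1 replicate left out the positive endothelial calls ran from 1, without replicate 3 or 8, to 4. Over all genes tested, positive calls then ran from 1250 to 2820 and negative ones from 715 to 2579. The mesangial list had 3 positive calls and 1 negative, that of the contractile gene Tagln (slope -0.42, adjusted p = 0.0479 by limma), with 0 to 4 negative calls when 1 replicate was left out and 4 without replicate 1. The parietal list had 0 of 8 by limma, with 2 at an unadjusted p under 0.05.

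Outside the glomerulus, the proximal tubule list had 1 of 13 positive slopes on Nphs1, a median of -0.24, and 7 genes with an unadjusted p under 0.05. Pck1 and Slc34a1, named for the highest mean counts, had slopes of -0.24 and -0.30 (adjusted p = 0.779 and 0.764 by limma). The summed normalised read count of the proximal tubule list was lowest in replicate 1 at 371503, where Nphs1 was highest, and highest in replicate 8 at 730493, a 1.97-fold range. Pck1, averaging 229757, weighs most in this sum. The part of the proximal tubule list in the levels of the podocyte genes was not tested. The distal nephron list had 10 of 10 positive slopes on Nphs1 but 4 of 10 without replicate 1, in which its summed level was highest. The macrophage list had 2 of 9 positive slopes on Nphs1, but 6 of 10 without replicate 3 and also without replicate 5. On the share of reads outside genes 3 macrophage genes passed with a negative slope, and without replicate 5 none did and 1 passed with a positive slope. Of the proximal tubule and distal nephron genes, 2 passed with a negative slope and 1 with a positive one, and none of these lists' genes passed without replicate 5. Over all genes tested, calls without replicate 5 also fell, to 1250 positive and 715 negative. No gene of these 6 lists passed on Nphs1 by limma. Besides the 7 proximal tubule genes, an unadjusted p under 0.05 was found for 3 distal nephron, 2 mesangial, 2 parietal, 1 endothelial and 0 macrophage genes.

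The genes whose pattern across the 9 replicates was most like that of Nphs1 were ranked by limma's moderated statistic. The 10 most positive were AABR07027306.1, Arrdc4, Kcnip4, Ptger4, AABR07026957.1, Bmp3, Itpr2, Musk, ENSRNOG00000008485 and Kcna4, with Pearson's r of 0.866 to 0.939 with Nphs1 over 9 replicates. The closest, AABR07027306.1, averaged 444.7 ± 160.3 normalised read counts (SD, n = 9) and had a slope of 0.50 ± 0.08. The prostaglandin receptor Ptger4 averaged 192.0 ± 72.7 and had a slope of 0.48 ± 0.11, and the calcium release channel Itpr2 averaged 1175 ± 278.3 with 0.31 ± 0.07. The 5 most negative were Fam151a, Dusp15, Mgst3, Cilp and Slc25a25, with r of -0.823 to -0.880. All 15 genes had an adjusted p of 0.750 by limma. The 8 podocyte genes were left out of this ranking beforehand. Among them Magi2 had the largest moderated statistic on Nphs1, 3.05, against 4.15 for Kcna4.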

How the data were processed

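Flash-frozen kidney cortex was sequenced as stranded mRNA libraries, per the labels' protocols. Per the submitters' processing notes, the tools were FastQC 0.11.2, MultiQC 0.9, HTSeq 0.6.1p1 and DESeq2, and the build was Rnor_5.0. The aligner is not given in the sources used here. What the authors deposited is a signal: read counts per gene over a size factor. Low values were multiples of what 1 read is worth, and whole reads were recovered within 0.1 read. In replicate 7, 1 read was worth 0.998, so its values hardly differ from whole reads.

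The table held 18423 rows, of which 3 counted reads outside genes, ambiguous reads and reads aligned to more than 1 place. These were left out of all gene tests and used to describe the libraries, their shares averaging 28.9%, 0.106% and 17.2% of counted reads. Shares had Wilson 95% intervals, which cover counting error only. 2 rows had a repeated name. All 9 samples formed 1 group.

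Values were analysed as log2(value + 1), which understates changes of low genes, for 13647 genes with a mean of at least 10. limma 3.58.1 (R 4.3.3) with a robust trend gave the variance test and all slopes, edgeR 4.0.16 and DESeq2 1.42.0 were run on the recovered reads, and scipy 1.17.1 gave permutation tests over all 362880 pairings. The Benjamini-Hochberg method adjusted p-values. Libraries were called separate sets where the largest gap exceeded 40% of the log2 range with at least 2 libraries on each side. The limma fits and permutation tests were tested on simulated data.

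The 8 genes, the lists and the tests were chosen with earlier results of these data known. Named genes were the 8, the 2 with the highest mean count per list or podocyte role, and podocyte genes passing on Nphs1. Outside the 8, the 10 most positive and 5 most negative genes on Nphs1 were named too. Others are said to be singled out. Mean counts only set which genes were named and do not rank transcript amounts. Alternatives covered pseudocounts of 0.5 and 5, low-value filters, TMM and equal-total scaling, left-out replicates, covariates, Spearman's rho, and other genes followed. Values of some genes under this rule are not reported here. Promoters came from RefSeq in GRCr8, matched by symbol.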

Additional observations from a re-analysis of the deposited data

Results flagged for a closer look

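The share of counted reads outside genes in replicate 5, 22.03%, lay farther below the next lowest library, 27.2% in replicate 8, than a group of 9 would usually show. The gap was 0.555 of the whole range, against a limit of 0.493 in Dixon's test at 95%, a limit that chance passes in about 1 of 20 groups. The test was run on each of the 8 genes, on reads in genes, and on the shares of reads outside genes and aligned to more than 1 place. Only this value was flagged. Over that many tests a flag by chance is more likely than the rate of a single test. Nphs1, Podxl, Magi2 and Clic5 were lowest in this replicate. Without it, Magi2 still passed on the share of reads outside genes, and Podxl did not. Without it the endothelial list had 2 positive calls, against 4 with it, and the macrophage list 0 negative calls, against 3 with it. Over all genes tested there were 1250 positive and 715 negative calls without it, against 2145 and 1830 with it.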

How the results depend on the processing

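No paired analysis was possible because the labels give only 1 group. The number of genes following Nphs1 was 0 under each scaling, pseudocount, filter, covariate and left-out replicate, but 11 with DESeq2 (1 positive, 10 negative) and 3436 with Podxl as the gene followed. The number with an unadjusted p under 0.05 by limma did move. It was 4159 of 13634 without replicate 1, and from 532 to 1342 without any other replicate. The number following the share of reads outside genes ran from 1965 to 5399 with 1 replicate left out, without replicate 5 and without replicate 1. Of the 15 pairs without Magi2 or Clic5, the number called was 12 with the same total per library and 1 with Spearman's rho. It was 2 with the share of reads outside genes as covariate and 0 to 1 with 1 replicate left out (1 without replicate 3). The share of all gene pairs called under these settings was not computed. Of the 18 relations with library measures without Magi2 or Clic5, the number called was 0 with Spearman's rho and 0 to 2 with 1 replicate left out (2 without replicate 1). Plce1 with log2 reads in genes ranged from -0.307 to 0.176 with 1 replicate left out. For the share of multiply aligned reads, the ranges were -0.568 to 0.259 for Nphs1, -0.270 to 0.146 for Wt1 (Spearman's rho 0) and -0.262 to 0.179 for Ptpro (-0.139 with the same total per library). None of these reversed values had passed a test. The causes were not tested. The variance test called 0 genes by limma under every alternative run, with 418 to 698 genes at an unadjusted p under 0.05. Depth limits Magi2 most, where counting error alone was 6.47% to 12.3% of a library's value.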
